A study of Mus musculus with 15 samples.

Results

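The heat shock and muscle chaperone genes described here were 10 genes taken by name from the deposited tables, of 55536 genes in all: Hspa1a, Hspa1b, Hspa8, Hsph1, Dnajb1, Bag3, Hsp90aa1, Hspb1, Hspb7 and Cryab. All 10 were found, and all 10 passed the filter on low values in every comparison. They were chosen by name and not by a measured value.

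Bulk poly(A) RNA of skeletal muscle was sequenced from 15 male mice aged 2 months, 5 in each of 3 groups. The controls were labelled wild type, the knockout mice had a myogenin-specific loss of PdgfrB per their labels, and the D489V mice a myogenin-specific, constitutively active PdgfrB. Myogenin is a transcription factor of differentiating muscle cells, so both alleles were directed at the muscle lineage, while the RNA came from the whole tissue. The labels name no muscle, strain, litter, batch or driver allele, and nothing says that samples of a group were processed apart, so p-values measure only the spread between these samples.

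Chaperones bind unfolded or partly folded proteins and keep them from aggregating. HSP70 proteins do this in cycles of ATP hydrolysis that are started by J-domain proteins such as Dnajb1 and reset by nucleotide exchange factors such as Hsph1 and Bag3, and HSP90 acts later on nearly folded clients. Small heat shock proteins work without ATP, and in muscle several of them bind the Z-disc and desmin. Stress brings the transcription factor Hsf1 to heat shock elements, which are inverted repeats of the bases nGAAn, at the promoters of the inducible members.

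Normalized counts summed to between 29815559 and 36489777 in a sample, and fibre genes such as Ckm, Acta1 and Ttn were at a median log2 difference of 0.03 (knockout) and 0.06 (D489V) from control, with 0 of 10 called in any comparison. Pdgfrb, the targeted gene, had 1754 ± 72.9 normalized counts (SD, n = 5) in controls, 1308 ± 266 in knockout and 905.8 ± 106 in D489V. All samples of both mutants lay below every control (background 1.25% of genes for knockout and 1.06% for D489V). The log2 difference from control was -0.45 in knockout, not called (limma adjusted p 0.294), and -0.96 in D489V, called (limma adjusted p 0.00168). Knockout exceeded D489V by 0.51 (limma adjusted p 0.0258), so the mean was lowest in D489V. Xist, which is transcribed from an inactive X chromosome, stood at 3165 normalized counts in knockout replicate 3, although all mice were labelled male, and at 101 or less elsewhere, so results that rest on it are given with and without it. In bulk tissue, fewer cells of a type and less RNA per cell cannot be told apart. Immediate early genes (transiently induced by many stimuli, handling and stress among them) and several markers of other tissues differed between knockout and D489V. By limma (Benjamini-Hochberg adjusted p under 0.05), 12 of 14 immediate early genes and 8 of 8 endothelial markers were lower in knockout. So were 6 of 8 adipocyte, 7 of 8 Schwann cell and 6 of 7 erythrocyte markers (background 10.3% of all genes tested). Of 8 mural markers 4 were lower and 1 higher, and no fibroblast, macrophage, lymphocyte, slow fibre or tendon marker was called. Some of these were uneven within groups. Summed slow fibre markers were 7387 and 20801 in knockout 1 and 2 against 128010 to 204313 in knockout 3 to 5. Summed lymphocyte markers were 34 and 33 against 1270 to 4713. Control 5 was also high, at 190687 and 5017, as was D489V 3 for slow fibre, at 199266. The part of this unevenness in the members' values was not tested.

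The RefSeq promoter table for GRCm38.p6 held start sites for 7 of the 10 genes: Hspa1a, Hspa1b, Hsph1, Dnajb1, Bag3, Hspb1 and Hspb7. The 250 bases before each start were searched for the 2-unit elements TTCNNGAA and GAANNTTC, which read the same on both strands, and for 3-unit elements, which extend either one by a further unit at the same spacing and so contain it. A 2-unit match was present in 4 of the 7 windows and in 12.8% of 32817 windows of all genes. No 3-unit match was present in the 7, and 0.466% of all windows held one. Only exact units were counted, so elements with a changed base in a unit were not found by this search. The stretches of 30 bases with the matches are shown for the 4 genes that had one, with the matched bases in capitals.
Hspa1a: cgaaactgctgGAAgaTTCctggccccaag
Hspa1b: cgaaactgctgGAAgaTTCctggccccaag
Hspb1: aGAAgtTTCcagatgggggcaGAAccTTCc
Hsph1: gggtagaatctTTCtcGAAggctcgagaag
These lie at chr17:34972242-34972271 and chr17:34959324-34959353 on the minus strand, chr5:135887801-135887830 on the plus strand and chr5:149636351-149636380 on the minus strand. The match of Hspb1 was doubled, with first bases 117 and 97 bases before the start, while the single match of Hsph1 lay 33 bases before its RefSeq start. That start lay 40 bases into the gene as annotated by GENCODE, so the match fell inside that gene. From a second RefSeq start of Hsph1 the match lay 54 bases upstream. A match is a run of letters and not a measured binding site.

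Hspa1a and Hspa1b differed at 3 of the 250 upstream bases. The whole upstream stretch of Hspa1a (chr17:34972157-34972406, minus strand) and that of Dnajb1 (chr8:83607925-83608174, plus strand) are given to set a window with a match beside one without, from a stress-inducible HSP70 and a J-domain partner that both had their highest mean in D489V.
Hspa1a: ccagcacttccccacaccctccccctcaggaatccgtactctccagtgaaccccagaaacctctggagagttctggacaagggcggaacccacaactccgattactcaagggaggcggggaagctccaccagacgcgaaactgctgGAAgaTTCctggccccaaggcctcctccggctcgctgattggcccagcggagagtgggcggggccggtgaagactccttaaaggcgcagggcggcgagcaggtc
Dnajb1: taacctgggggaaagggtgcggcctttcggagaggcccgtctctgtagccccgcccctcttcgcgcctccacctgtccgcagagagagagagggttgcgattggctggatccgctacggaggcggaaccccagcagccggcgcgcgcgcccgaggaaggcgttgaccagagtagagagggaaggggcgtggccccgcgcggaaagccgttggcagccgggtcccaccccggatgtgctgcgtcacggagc

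Levels between genes were compared per kilobase of merged exons, which understates genes with many isoforms. In controls the mean was 9400 ± 558 normalized counts per kilobase (SD, n = 5) for Cryab, 6530 ± 1450 for Hspa8 and 5150 ± 642 for Hspb1, so the small heat shock proteins and the constitutive HSP70 led. Hspb7 followed at 1720 ± 607, Bag3 at 1430 ± 464, Hsp90aa1 at 544 ± 94.5 and Hsph1 at 383 ± 88.2 per kilobase. The lowest of the 10 as counted were Dnajb1 at 97.2 ± 12.5, Hspa1a at 48.5 ± 18 and Hspa1b at 45.9 ± 12.5. Short sequence words shared with other genes made up 60.3% of Hspa1a, 62.3% of Hspa1b, 48.8% of Hspb1, 47.5% of Hsp90aa1 and 38.6% of Hspa8. For each of the other members they made up at most 0.407%. The effect of shared sequence on these levels was not tested. The place of Hspa1a and Hspa1b below Dnajb1 is therefore uncertain, as are the ranks of Hspb1, Hsp90aa1 and Hspa8. Hspa8 and Hspb1, Hspb7 and Bag3, Hsp90aa1 and Hsph1, and Hspa1a and Hspa1b overlapped in range over the 5 controls. Within each control sample Hspb7 lay above Bag3 and Hsp90aa1 above Hsph1 per kilobase. The order of Hspa8 and Hspb1, and that of Hspa1a and Hspa1b, changed between samples and was not resolved. Cryab varied least among controls, with a coefficient of variation of 5.94%, and Hspa1a varied most, at 37.0%.

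Each mutant group was compared with the shared controls, and the 2 mutant groups with each other, by limma on log2(value + 1). In knockout against control, 0 of the 10 genes passed an adjusted p of 0.05 (background 0.00656% of 15234 genes tested), and 0 had an unadjusted p under 0.05 (background 15.1%). The 5 knockout values lay apart from the 5 controls for 0 of the 10 (background 2.24%, 0.991% above and 1.25% below). In D489V against control, 0 of the 10 passed (background 0.0587% of 15339 genes, 0.0261% higher and 0.0326% lower), and 0 lay apart from the controls (background 2.16%, 1.1% above and 1.06% below). At an unadjusted p under 0.05, 4 were higher in D489V (Hspa1a, Hspa1b, Dnajb1 and Hspb7; background 5.37%) and 1 was lower (Hsph1; background 4.06%), 5 of 10 in all against 9.43% of all genes. Hspa1a and Hspa1b share much of their sequence, so they are not 2 independent members of this count. In the same comparison 10 of 14 immediate early genes, 7 of 8 erythrocyte markers and 4 of 8 adipocyte markers were higher at that unadjusted p, with 0 called, and their part in the members' differences was not tested. In knockout against D489V, 3 of the 10 passed, Hsph1 and Bag3 higher and Dnajb1 lower in knockout, against a background of 20.8% of 15299 genes (10.5% higher and 10.3% lower), so the share of the members was near that of all genes. At an unadjusted p under 0.05 it was 5 of 10 (background 37.7%), 3 higher (19.4%) and 2 lower (18.3%), and 2 had groups that did not overlap (13.9%). Without knockout replicate 3, 4 of the 10 passed, while the calls over all genes fell from 3181 to 2273. The median log2 difference of the 10 was 0.23 in knockout against control, -0.05 in D489V against control and 0.03 in knockout against D489V, while the medians of all genes were 0.011, 0.002 and 0.

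**Figure D1:**
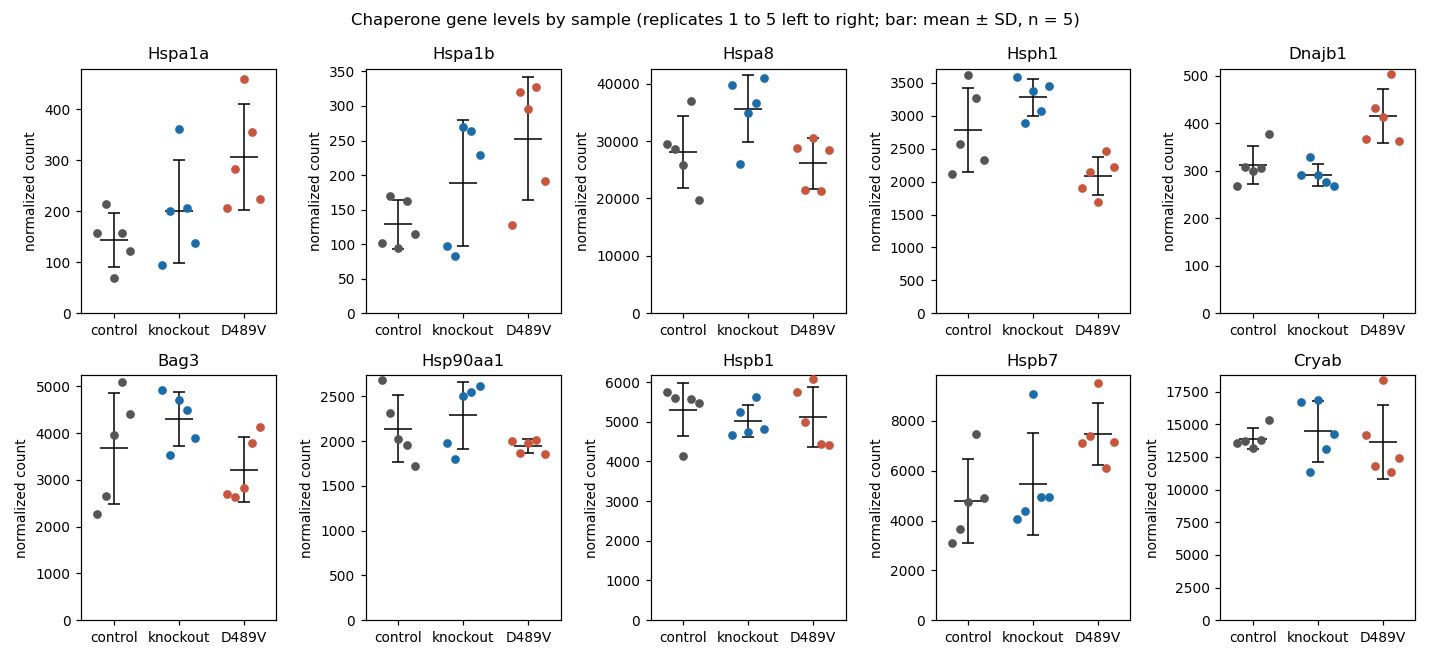
Normalized counts (vertical axes, each from 0) of the 10 chaperone genes in the 5 control, 5 knockout and 5 D489V samples, with points in replicate order and bars for mean ± SD. Hsph1 in knockout, at 2888 to 3595, lies above every D489V sample, and Dnajb1 in knockout, at 267 to 328, lies below every D489V sample, while Cryab and Hspb1 overlap in all groups.

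Hspa1a (ENSMUSG00000091971, chromosome 17, 34969190 to 34972156, minus strand) and Hspa1b (ENSMUSG00000090877, chromosome 17, 34956436 to 34959238, minus strand) encode the stress-inducible HSP70 and are near-identical copies. Of the 50-base words in the Hspa1b transcript, 62.3% also occurred in Hspa1a, so reads can be split between them and each single value is uncertain. Hspa1a also overlaps an exon of Gm20481 on the other strand, a gene that was listed at 0 or 1 in every sample.

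The normalized counts of Hspa1a were 157, 214, 69, 158 and 122 in controls, 94, 201, 361, 206 and 138 in knockout, and 207, 282, 460, 355 and 224 in D489V. Of the D489V samples, 4 of 5 lay above every control, and replicate 1 was just under the highest control. The D489V mean was 2.16-fold the control mean on the log2(value + 1) scale, or 1.11 ± 0.297 (SE) in log2, which did not pass over all genes (limma adjusted p 0.235, exact two-sided permutation p 0.0159).

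For Hspa1b the values were 102, 170, 94, 162 and 115 in controls, 97, 83, 269, 264 and 229 in knockout, and 128, 320, 296, 328 and 191 in D489V. Here too 4 of 5 D489V samples exceeded every control, while the knockout samples fell on both sides, 3 above every control and 1 below. D489V differed from control by 0.92 ± 0.275 (SE) in log2 (limma adjusted p 0.287, exact two-sided permutation p 0.0317). With both genes added into 1 row, a choice made after the values were seen, the sum was 272.6 ± 83.8 (SD, n = 5) in controls, 388.4 ± 170 in knockout and 558.2 ± 178 in D489V. The log2 difference of this sum in D489V against control was 1.02 ± 0.263 (SE, limma adjusted p 0.205), while that of knockout against D489V was -0.57 ± 0.307 (SE, limma adjusted p 0.191). Knockout replicate 3 held the highest sum of its group, 630, and without it Hspa1a was lower in knockout than in D489V by a log2 difference of -0.94 that passed (limma adjusted p 0.0443), against -0.69 (limma adjusted p 0.139) with it.

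Hspa8 (ENSMUSG00000015656, chromosome 9, 40800984 to 40810087, plus strand) encodes the constitutive HSP70, which folds new proteins and uncoats clathrin vesicles. Its normalized counts were 29466, 28555, 25825, 36934 and 19702 in controls, 39838, 26063, 34857, 36638 and 40915 in knockout, and 28776, 21445, 30606, 21222 and 28521 in D489V. All knockout samples except replicate 2 lay above every D489V sample. The log2 difference of knockout from D489V was 0.45 ± 0.154 (SE; limma adjusted p 0.0561, exact two-sided permutation p 0.0317). It passed in 5 of 22 alternatives, which include the sum with a pseudogene described below (limma adjusted p 0.0249 to 0.137 over the 22). The smallest p came without knockout replicate 2 (0.56, limma adjusted p 0.0249), while without knockout replicate 3 it did not pass (limma adjusted p 0.0861). Against control, Hspa8 had a log2 difference of 0.36 in knockout and -0.09 in D489V (limma adjusted p 0.357 and 0.896).

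Hspa8 varied opposite to a processed pseudogene. Of its 50-base words, 38.6% occurred in transcripts of 14 other genes, most of them in Gm15459 (34.6%), a processed pseudogene on another chromosome. Gm15459 held 3695, 4646, 5079, 971 and 6573 normalized counts in controls, 440, 4176, 1145, 1036 and 725 in knockout, and 437, 6932, 445, 7381 and 1048 in D489V. The samples of each group with the most Gm15459 (control 5, knockout 2 and D489V 4) were also those with the least Hspa8, and control 4, with the least Gm15459 of the controls, had the most Hspa8. Across the 15 samples, which share the 3 groups, Pearson's r of the log2 values was -0.79 and Spearman's rho was -0.81, with r = -0.88 once group means were removed and -0.70 without the 2 samples farthest from the median of Gm15459. Added together, the 2 genes gave 32289 ± 4220 (SD, n = 5) in controls, 37167 ± 4452 in knockout and 29363 ± 1056 in D489V, and the coefficient of variation in D489V was 3.6% for the sum against 17.0% for Hspa8 alone. With this sum in place of both, chosen after the values were seen, knockout against D489V had a log2 difference of 0.33 ± 0.107 (SE; limma adjusted p 0.0454), so the size shrank while the call was gained.

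Hsph1 (ENSMUSG00000029657, chromosome 5, 149614287 to 149636376, minus strand) encodes HSP110, a relative of HSP70 that exchanges its nucleotide and takes part in dissolving aggregates. It held 2117, 2573, 3621, 3275 and 2323 normalized counts in controls, 3595, 2888, 3376, 3080 and 3452 in knockout, and 1910, 2151, 1695, 2461 and 2215 in D489V. Every knockout sample lay above every D489V sample (7.22% of all genes tested also had all knockout samples above), while control 3 lay above all knockout samples, control 4 within their range and controls 1 and 5 within the D489V range. Knockout exceeded D489V 1.58-fold, by 0.66 ± 0.107 (SE) on the log2 scale (limma adjusted p 0.00392, exact two-sided permutation p 0.00794, the smallest that 5 against 5 samples can give). This call held in all 21 alternatives run, with limma adjusted p from 0.00188 to 0.0154. Against control, the log2 difference was 0.26 in knockout and -0.40 in D489V, with limma adjusted p of 0.384 and 0.45.

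Dnajb1 (ENSMUSG00000005483, chromosome 8, 83608193 to 83612653, plus strand) encodes a stress-inducible HSP40 that delivers clients to HSP70. Its normalized counts were 267, 307, 300, 306 and 377 in controls, 290, 328, 290, 277 and 267 in knockout, and 367, 431, 412, 503 and 363 in D489V. All D489V samples lay above all knockout samples (6.7% of all genes tested had knockout entirely below D489V), and only control 5 reached into the D489V range. Knockout differed from D489V by -0.51 ± 0.111 (SE) on the log2 scale (limma adjusted p 0.0119, exact two-sided permutation p 0.00794), a call kept in all 21 alternatives (limma adjusted p 0.00612 to 0.0369). In D489V against control the log2 difference was 0.41 ± 0.122 (SE; limma adjusted p 0.283), and in knockout against control it was -0.09 (limma adjusted p 0.68).

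Immediate early genes moved in the same direction as Dnajb1. The summed level of 15 of them was 18552 to 25026 in controls, 14625 to 20953 in knockout and 25638 to 34001 in D489V, with none at 0 in every sample. The genes whose pattern over the 15 samples was most like that of Dnajb1, among 12149 genes with a mean of 50 or more, were Dusp1 (r = 0.88), Klf2 (0.87) and Klf4 (0.84), all of them early response genes, and Dusp1 and Klf4 are also in the summed list. With group means removed these values were 0.59, 0.58 and 0.39. The part of the PdgfrB alleles, of handling or of early stress in the differences of these genes and of Dnajb1 was not tested.

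**Figure D2:**
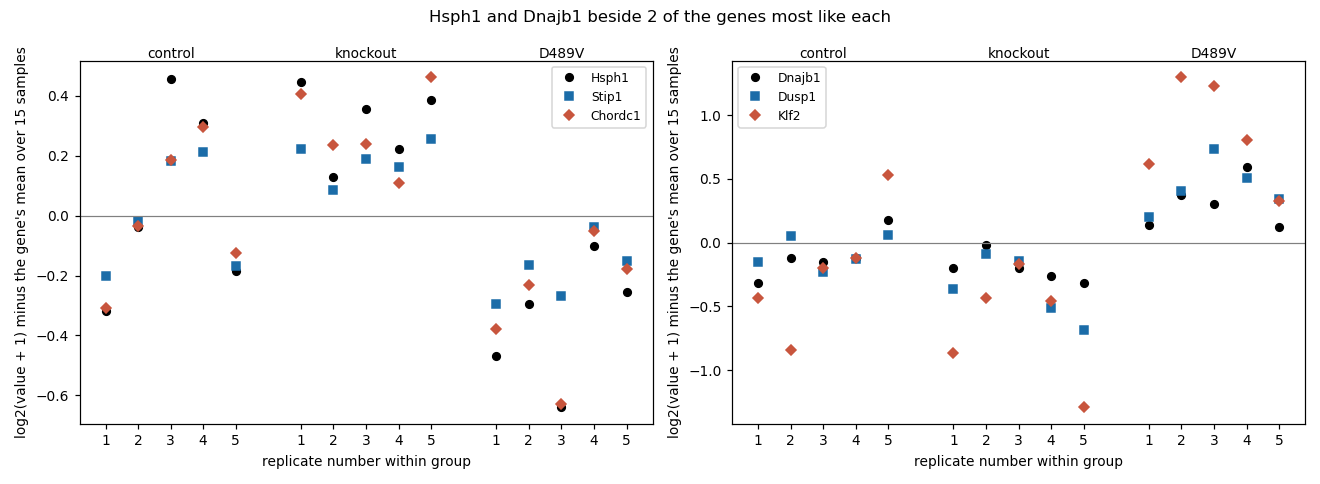
Log2(value + 1) of each gene minus its mean over the 15 samples (vertical axis) by replicate within group (horizontal axis), for Hsph1 with Stip1 and Chordc1 (left) and Dnajb1 with Dusp1 and Klf2 (right). Over the 15 samples Stip1 and Chordc1 follow Hsph1 (r = 0.98 and 0.96, or 0.95 and 0.91 with group means removed), while Dusp1 and Klf2 are high in the D489V samples together with Dnajb1 (r = 0.88 and 0.87).

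Bag3 (ENSMUSG00000030847, chromosome 7, 128523616 to 128546981, plus strand) encodes a co-chaperone that joins HSP70 to small heat shock proteins at the Z-disc and directs damaged filamin to autophagy. It held 2267, 2652, 3950, 5092 and 4418 normalized counts in controls, 4915, 3538, 4711, 4484 and 3888 in knockout, and 2696, 2628, 2825, 3793 and 4133 in D489V. Controls 1 and 2 and D489V 1 to 3 were the 5 lowest of the 15, and the controls alone spanned more than the difference between the mutants. Knockout exceeded D489V by 0.44 ± 0.144 (SE) on the log2 scale (limma adjusted p 0.0495, exact two-sided permutation p 0.0397). This call was lost in 14 of 21 alternatives, among them the fits without knockout replicate 1, 3, 4 or 5 and without D489V replicate 1, 2 or 3, where the limma adjusted p was 0.0638 to 0.122.

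The genes most like Bag3 were Supt5 (r = 0.97), Cand2 (0.96) and Mybpc1 (0.96), the gene of the slow form of myosin-binding protein C, and these values were 0.96, 0.95 and 0.95 with group means removed. Mybpc1 held 22947 and 26372 normalized counts in controls 1 and 2 and 28327 to 30826 in D489V 1 to 3, against 50492 to 69858 in the other 10 samples, so the same 5 samples were lowest for both genes. A summed level of 8 slow fibre markers did not divide the samples this way, at 7387 in knockout 1 and 16825 in control 1 against 199266 in D489V 3.

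Hsp90aa1 (ENSMUSG00000021270, chromosome 12, 110690605 to 110702728, minus strand) encodes the inducible cytosolic HSP90. It held 2684, 2316, 2027, 1954 and 1718 normalized counts in controls, 1978, 1801, 2501, 2549 and 2619 in knockout, and 2005, 1864, 1976, 2017 and 1858 in D489V. The D489V samples were the most even of any member in any group, with a coefficient of variation of 3.97%, and knockout 3 to 5 lay above all of them. Its log2 difference was 0.10 in knockout against control, -0.12 in D489V against control and 0.22 in knockout against D489V, with limma adjusted p of 0.74, 0.772 and 0.159, and the first was -0.006 with quantile normalization. Of its 50-base words, 47.5% occurred in other genes, most in the pseudogene Gm12346, which held at most 41 normalized counts.

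**Figure D3:**
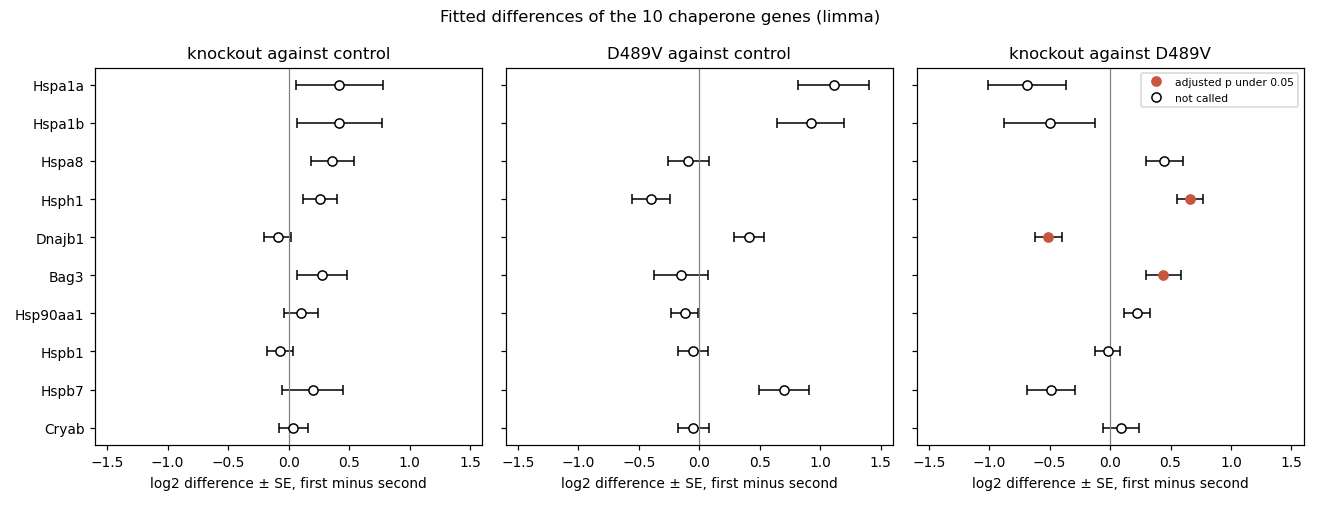
Fitted log2 difference ± SE (horizontal axes) of each chaperone gene in the 3 comparisons, filled where the limma adjusted p was under 0.05. The filled points are Hsph1 (0.66), Dnajb1 (-0.51) and Bag3 (0.44), all in knockout against D489V, and Hspa1a has the greatest difference from control (1.11 in D489V) without passing.

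Hspb7 (ENSMUSG00000006221, chromosome 4, 141420779 to 141425311, plus strand) encodes a small heat shock protein of heart and skeletal muscle that binds filamin C. The normalized counts were 3090, 3666, 4733, 7461 and 4912 in controls, 4059, 4385, 9087, 4938 and 4958 in knockout, and 7123, 7396, 9507, 6130 and 7158 in D489V. All D489V samples lay above the control mean of 4772, but control 4 lay within their range. D489V exceeded control 1.62-fold, or 0.70 ± 0.208 (SE) in log2 (limma adjusted p 0.289, exact two-sided permutation p 0.0397). In knockout against D489V the log2 difference was -0.49 ± 0.196 (SE; limma adjusted p 0.0873), and without knockout replicate 3, the one knockout sample above 4958, it was -0.69 and passed (limma adjusted p 0.00844). The most like genes were Slc25a25 (r = 0.82), Spcs2 (0.82) and Sik1 (0.81). Slc25a25 encodes an ATP-Mg carrier of mitochondria and Sik1 a kinase induced by cyclic AMP.

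Hspb1 (ENSMUSG00000004951, chromosome 5, 135887919 to 135889563, plus strand), the gene of HSP25, which protects actin filaments, held 5755, 5601, 4136, 5566 and 5473 normalized counts in controls. It held 4670, 5241, 4744, 5620 and 4821 in knockout and 5746, 4984, 6068, 4427 and 4414 in D489V, and the groups overlapped throughout. The log2 difference from control was -0.07 ± 0.106 (SE) in knockout and -0.05 ± 0.124 in D489V, and knockout differed from D489V by -0.02 ± 0.106 (limma adjusted p 0.736, 0.924 and 0.9). Of its 50-base words, 48.8% occurred in the pseudogene Hsp25-ps1, which held at most 63 normalized counts in controls.

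Cryab (ENSMUSG00000032060, chromosome 9, 50751325 to 50756636, plus strand) encodes alpha B-crystallin, a small heat shock protein that holds desmin filaments. It held 13525, 13683, 13174, 13790 and 15314 normalized counts in controls, 16673, 11355, 16827, 13109 and 14259 in knockout, and 14174, 11787, 18354, 11378 and 12416 in D489V. The means were close, at 13897, 14445 and 13622, while the standard deviation was 825.6 in controls against 2346 in knockout and 2853 in D489V, a difference in spread that was not tested. The log2 differences were 0.04, -0.05 and 0.09 in the same order (limma adjusted p 0.874, 0.93 and 0.686), and with quantile normalization the first and last turned to -0.134 and -0.053. Cryab shares exon bases with Hspb2 on the other strand. The libraries keep strand, but whether the counting used it is not given in the sources used here.

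The 10 genes did not move as one set. Over their 45 pairs and 15 samples, Pearson's r of the log2 values ran from -0.73 (Hspa8 and Dnajb1) to 0.75 (Hspa1a and Hspa1b), with a median of 0.03, and 25 pairs were above 0. All pairs share the libraries and their scaling, so these are descriptions. Hspa1a, Hspa1b, Hspb7 and Dnajb1 were positively related in every pair (r = 0.42 to 0.75). With group means removed, the pairs of Dnajb1 with Hspa1a, Hspa1b and Hspb7 were at 0.19, 0.10 and 0.06, while Hspa1a with Hspa1b remained at 0.61. Hsph1 varied with Bag3 (r = 0.71, and 0.62 with group means removed). Dnajb1 ran opposite to Hsph1 (r = -0.62), a relation that was 0.07 with group means removed and so followed the groups. With Hspa8 it ran opposite within the groups as well (r = -0.73, and -0.75 with group means removed). Hspa8 was taken alone here, although it varied opposite to its pseudogene Gm15459 (r = -0.88 with group means removed). The relation of Dnajb1 to the sum of Hspa8 and Gm15459 was not computed. Hspa1a and Hspa1b share much of their sequence, so their r can also depend on how reads were split.

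**Figure D4:**
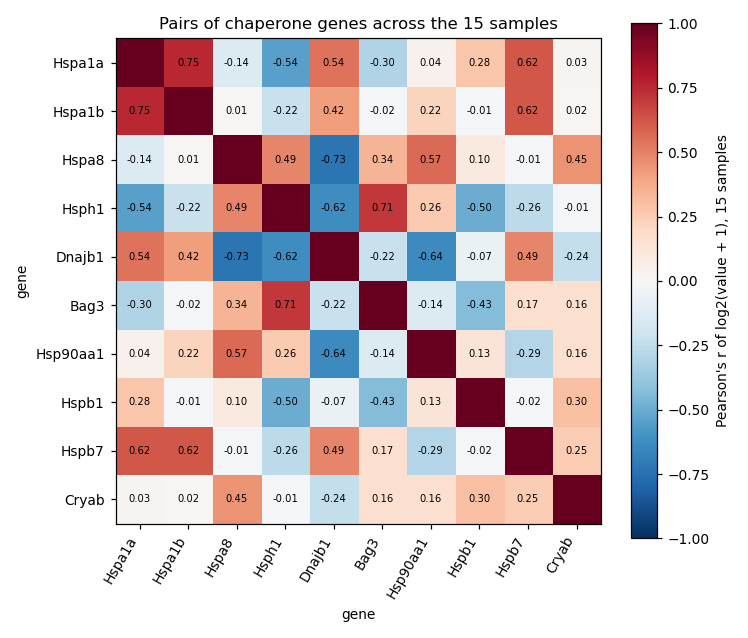
Pearson's r of log2(value + 1) over the 15 samples for each of the 45 pairs of chaperone genes (both axes list the genes, colour from -1 to 1). Hspa1a, Hspa1b, Dnajb1 and Hspb7 are positive with each other, while Dnajb1 is negative with Hspa8 (-0.73), Hsp90aa1 (-0.64) and Hsph1 (-0.62).

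Of 106 other chaperone and folding genes in 8 lists, 103 were tested. In knockout against D489V, 31 of them were higher and 3 lower in knockout by limma adjusted p, 30.1% and 2.91%, against 10.5% and 10.3% of all genes tested. The count of higher genes was 14 without D489V replicate 1, 16 without D489V replicate 2, 20 without knockout replicate 5 and 22 without knockout replicate 3. Calls over all genes, both directions together, also fell in these fits, from 3181 to 1398, 1526, 2141 and 2273. Their median log2 difference was 0.221, with 0 over all genes, and 80 of 103 were above 0 (74 after upper-quartile rescaling and 70 after quantile normalization). Under these rescalings 23 and 22 were called higher, and the median was 0.173 and 0.127, with -0.048 and 0.014 over all genes. All-gene calls, both directions together, were 3146 and 2882 under them. Against control, 0 of the 103 passed in either mutant. At an unadjusted p under 0.05, 18 were higher and 2 lower in knockout (background 7.65% and 7.42% of all genes). The 18 became 9 without control replicate 1, control replicate 2 or knockout replicate 3, 10 without knockout replicate 5, and 34 without control replicate 4, and they were 10 after upper-quartile rescaling and 9 after quantile normalization. In D489V, 5 were higher and 10 lower (background 5.37% and 4.06%), and over the fits without 1 sample these counts ran from 1 to 6 and from 4 to 14. The higher genes were 1 without control replicate 2, 2 without D489V replicate 1 and 3 without D489V replicate 2 or 5. The lower genes were 5 without control replicate 4 or D489V replicate 1, 4 without D489V replicate 2, 16 after upper-quartile rescaling, and 15 after quantile normalization, with array weights or with all 15 samples fitted together. The all-gene share at that unadjusted p was not computed for these other fits, in either comparison with control.

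Among HSP70 relatives and exchange factors, 5 of 17 were higher and 1 lower in knockout than in D489V. Hspa13, an HSP70 of the microsomal membrane, held 454.8 ± 43.9 normalized counts (SD, n = 5) in knockout and 259 ± 42.4 in D489V, with no overlap (log2 difference 0.82, limma adjusted p 0.00307). Bag2, which inhibits the ubiquitin ligase Stub1, was higher by 0.66 (limma adjusted p 0.00415) and Hspa4l, an HSP110 relative, by 1.00 (limma adjusted p 0.00867). Hspa12a was the 1 that was lower, by a log2 difference of -0.62 (limma adjusted p 0.00789).

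Of 15 J-domain genes other than Dnajb1, 5 were higher in knockout and 0 lower, with a median log2 difference of 0.23 against the -0.51 of Dnajb1. Dnajb14 was higher by 0.38 (limma adjusted p 0.0152), Dnaja4 by 0.50 (limma adjusted p 0.0214), Dnajb4 by 0.57 (limma adjusted p 0.0244) and Dnaja2 by 0.35 (limma adjusted p 0.0437). Against control, Dnajb5 held 7409 to 8394 normalized counts in knockout and 5789 to 7294 in controls, with no overlap, but did not pass (log2 difference 0.32, limma adjusted p 0.276).

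Of 16 HSP90 co-chaperones and related genes, 6 were higher in knockout and 0 lower. Chordc1 and Stip1, the latter the adaptor that hands clients from HSP70 to HSP90, were higher by 0.58 and 0.37 (limma adjusted p 0.00726 and 0.00882), and both were among the 3 genes most like Hsph1. In controls Stip1 ranged from 3105 to 4129 normalized counts, with knockout at 3789 to 4261 and D489V at 2905 to 3472, so that controls reached both. Smyd1, a methyltransferase of muscle that is needed for sarcomere assembly, held 19420 ± 1140 normalized counts in knockout and 12560 ± 3650 in D489V (log2 difference 0.68, limma adjusted p 0.0192).

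The chaperonins had 5 of 10 higher and 0 lower, with Cct6a at 0.37, Cct3 at 0.25 and Cct7 at 0.22, subunits of the ring that folds actin and tubulin, and the mitochondrial Hspd1 at 0.52 (limma adjusted p 0.0152, 0.0276, 0.0351 and 0.0298). Of the 18 genes of endoplasmic reticulum chaperones and the unfolded protein response, 8 were higher and 0 lower. They included Hspa5, the luminal HSP70 BiP, with 7759 ± 772 normalized counts in knockout and 5388 ± 579 in D489V (log2 difference 0.53, limma adjusted p 0.00679), and Hsp90b1 at 0.43 (limma adjusted p 0.00437). Of 5 other small heat shock genes tested, Hspb8, the partner of Bag3, was higher, at 10413 to 13359 against 7045 to 8634 (log2 difference 0.53, limma adjusted p 0.00713). Hspb8, Ahsa2, Cct8 and Dnajb11 had every D489V sample below every control (background 1.06%), without passing. Their log2 differences were -0.36, -0.2, -0.18 and -0.18 (limma adjusted p 0.339, 0.415, 0.447 and 0.466). In knockout against control Hspb8 was at 0.17 (limma adjusted p 0.514), and Dnaja1, like Dnajb5, lay above every control.

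In chaperone-assisted autophagy, 1 of 14 passed, Vcp, a segregase that unfolds ubiquitinated proteins (log2 difference 0.39, limma adjusted p 0.0261). Of the heat shock factors and regulators, 0 of 8 were higher and 2 lower in knockout, which were Akap12 at -0.43 and Ppp1r15a, a stress-induced phosphatase subunit, at -0.60 (limma adjusted p 0.0163 and 0.0237). Hsf1 itself had a log2 difference of -0.01 between knockout and D489V (limma adjusted p 0.951). In these comparisons the summed endothelial markers were 8560 to 13515 in knockout and 16696 to 19339 in D489V, the adipocyte markers 12936 to 23685 and 31322 to 106479, and the erythrocyte markers 6322 to 12006 and 14833 to 25175. The part of these other tissues in the differences of the chaperone lists was not tested, and the summed fibre genes overlapped between the groups.

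**Figure D5:**
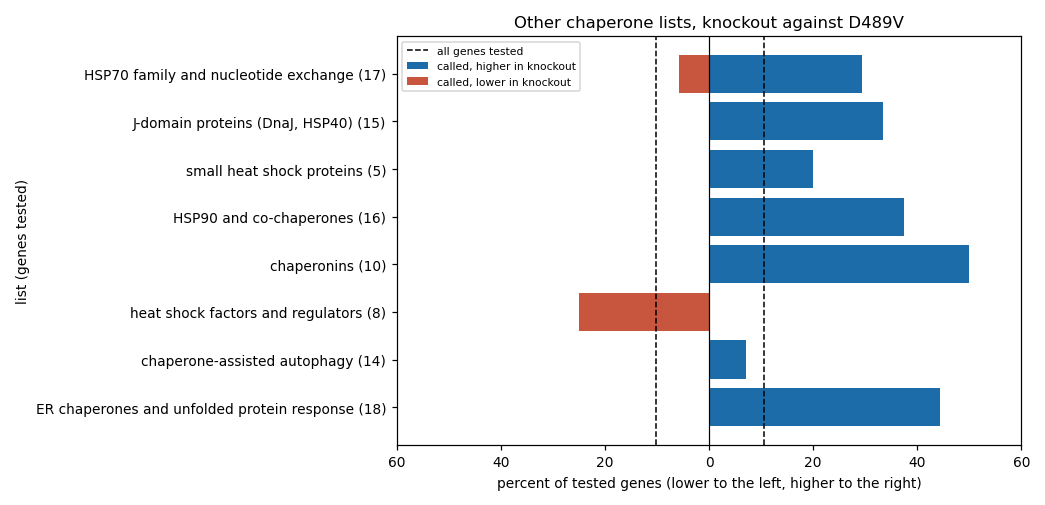
Percent of tested genes in each of 8 lists (vertical axis, number tested in parentheses) that were called higher (to the right) or lower (to the left) in knockout than in D489V, with dashed lines for all genes tested (10.5% and 10.3%). Chaperonins (5 of 10) and endoplasmic reticulum chaperones (8 of 18) reach farthest right, and only the HSP70 list (1 of 17) and the regulators (2 of 8) reach left.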

How the data were processed

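The authors deposited 2 tables of normalized gene counts rounded to whole numbers, treated here as a score and not as raw counts. The normalization is not given in the sources used here. The submitters' processing notes name GRCm38, Trim Galore 0.6.0, STAR 2.7.0e and DESeq2 1.26.0, without roles. The control columns were identical in both tables, which were joined by gene identifier, and all 55536 identifiers matched GENCODE M21. Median ratios to the geometric mean of the samples were 1.0069 to 1.0097, so knockout and D489V were compared directly.

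Genes that reached 10 in 5 or more of the 10 samples compared were tested on log2(value + 1), which understates changes of low genes, using limma 3.58.1 (R 4.3.3; two-sided, eBayes trend). Calls used a Benjamini-Hochberg adjusted p under 0.05 over all genes. The fit was run on simulated counts with a shared dispersion and larger changes than most differences given here. That run does not show how well small differences are found, and no conclusion is drawn from it. All 10 members were named. From each wider list, genes were named among the 4 called genes of smallest p per comparison, and among the 3 of smallest p with groups that did not overlap; Hsf1 was named after its values were seen. The members and lists were chosen with earlier results of these data known. Promoters are RefSeq's.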

Additional observations from a re-analysis of the deposited data

Results flagged for a closer look

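Each member was searched in each group for a sample far from the other 4, taken as a gap to the nearest sample above 0.71 of the group's range on the log2 scale. Of 30 such groups of values 2 had one, while chance gives about 1 in 20, or 1.5. Hspb1 in control replicate 3 held 4136 normalized counts against 5473 to 5755 in the other controls (gap 0.848 of the range). Hspb7 in knockout replicate 3 held 9087 against 4059 to 4958 in the other knockout samples (gap 0.752), and this is the sample with 3165 normalized counts of Xist.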

How the results depend on the processing

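The number of members called was 0 in both comparisons with control under each of the 21 alternatives run. In knockout against D489V it was 3 as reported, 5 with array weights and 5 with the replicate block. Calls over all genes were 3181, 4458 and 2208 in the same order. Over the fits without 1 replicate the members called were 2 to 4 and the all-gene calls 1398 to 3686. The cause was not tested. With the replicate number as a block, Hspa1a, Hspa8 and Hspb7 passed and Bag3 did not (adjusted p 0.022, 0.0486, 0.0377 and 0.0716), but same-numbered samples of these groups deviated with correlations of -0.11 to 0.1, so a shared number marks no pairing. Signs changed only for differences near 0. Hsp90aa1 in knockout against control was -0.006 with quantile normalization. In the same comparison Cryab was -0.018 after upper-quartile rescaling and -0.134 after quantile normalization, and between knockout and D489V it was -0.053 after quantile normalization. Over fits without 1 replicate, the log2 difference of Cryab from control ran from -0.017 to 0.125 for knockout and -0.163 to 0.009 for D489V, that of Hspa8 from -0.214 to 0.012 for D489V, and that of Hspb1 from -0.073 to 0.042 in knockout against D489V. Over all genes, the calls ran from 1 to 16 (1 as reported) in knockout against control, from 1 to 86 (9 as reported) in D489V against control and from 1398 to 4458 (3181 as reported) in knockout against D489V. The depth of each library is not known from rounded values, so no counting error is given for the low genes Hspa1a, Hspa1b and Dnajb1.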
